A study of Mus musculus with 5 samples.

Results

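The proteasome genes of the mouse mammary gland were followed on 5 whole-transcript arrays. Members were all genes whose probe set carries a single annotated symbol made of Psm, a letter from a to g and a number, and there were 50 of them among 19938 genes measured. A symbol read by several probe sets was represented by its brightest one on average over the 5 arrays. Mean level was thus the only measured value used to pick among probe sets. The gene list itself was chosen with earlier results of these data known. Of the 50, 48 encode subunits, activators, an inhibitor or assembly chaperones of the proteasome. The other 2, Psmc3ip and Psme3ip1, match the pattern by name but encode interaction partners, and they are listed apart.

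The study compared 3 rtTA/Cyclin D1 mice, which carry a cyclin D1 transgene together with rtTA, with 2 control mice that carry rtTA alone. All were FvB/N females of 8 weeks, and each array held total RNA of the gland of 1 mouse. rtTA is the reverse tetracycline transactivator, which switches on a responder transgene when doxycycline is present, and the study's design text gives its promoter as MMTV, a viral promoter that drives expression mainly in mammary epithelium. The treatment label gives 7 days of doxycycline, worded for a "KE" mutant of the cyclin D1 transgene, and does not say whether the controls were given the drug. In RNA of a whole gland, fewer cells of a type and less RNA per cell cannot be told apart.

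The proteasome is the protease that degrades proteins tagged with ubiquitin. Its barrel-shaped core particle is built of alpha rings, which gate the entrance, and beta rings, which hold the catalytic threonines. A regulatory particle sits on the barrel: its base contains the ATPases that unfold substrates, and its lid removes the ubiquitin chains. In immune cells and under interferon gamma, 3 catalytic beta subunits are replaced by inducible counterparts to form the immunoproteasome, which shapes peptides for presentation on MHC class I. The alveolar cells of the mammary gland make large amounts of secreted protein, and misfolded protein is cleared through this protease.

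The values are log2 expression after RMA, and all differences below are cyclin D1 minus control on that log2 scale. Cyclin D1 arrays had a wider range of values than control arrays: genes varied with an SD of 1.32, 1.38 and 1.20 in cyclin D1 glands against 0.735 and 0.926 in controls, and 1597 to 2120 genes against 305 and 712 exceeded a log2 value of 5. Control 1 stood apart, correlating with the other 4 arrays at Pearson r of 0.701 to 0.779 across genes. Control 2 correlated with the cyclin D1 arrays at 0.841 to 0.884, more closely than with control 1 (0.779). The median difference followed brightness, from -0.29 in the dimmest decile of genes to 1.59 in the brightest, with deciles set by mean level over the 5 arrays. Differences of the proteasome genes are therefore given also after quantile normalization of the 5 arrays over all genes tested, called renormalized, where the brightest decile had a median of 0.36. Genes on an array are not set against each other by level, since probes differ in brightness.

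Of the 50 members 10 were higher in cyclin D1 glands and 0 were lower by limma (adjusted p over all 19938 genes). Over all genes 5.38% were called higher and 0.687% lower. The 10 were Psma1, Psma5 and Psma7 of the alpha rings, Psmc2, Psmc6 and Psmd1 of the base, Psmd6, Psmd7 and Psmd12 of the lid, and the activator gene Psme4. Their differences ran from 1.48 to 3.60, or 2.78-fold to 12.2-fold. All 10 kept a positive sign under 16 alternative settings, with values from 0.65 to 3.84, but only Psmd6 passed after renormalization (adjusted p = 0.0434), where 0.256% of all genes were called higher. At an unadjusted p under 0.05 the members numbered 31 of the 50, against 26.3% of all genes. The count after adjustment was 0 when control 1 was left out (24 of the 50 unadjusted, against 24.9% of all genes), 0 without cyclin D1 replicate 1 (27, against 17.9%), 0 without cyclin D1 replicate 2 (24, against 17.5%), and 5 without cyclin D1 replicate 3, where 1.5% of all genes were called. Without control 1 the differences of the 10 were 1.37 to 3.36.

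The members' count changed with the setting, and so did the share of all genes called. It was 10 after median centring (6.32% of all genes), 10 with probe sets averaged per gene (5.49%), 9 with a robust prior (5.17%) and 8 with an intensity trend (3.12%). It was 14 after a filter on dim genes (14.6% of the genes kept) and 13 without control 2 (6.85%). It was 15 with the replicate number as a block (5.7%), where Psma2, Psma4, Psma6, Psmb7 and Psme3 also passed. It was 4 with array weights (1.32%) and 2 with arrays scaled to the same median and SD (1.01%). On the renormalized scale 0.105% of all genes were lower, and the members' count was 8 without control 1 (2.78%) and 20 without control 2 (11.1%). Psmd6 and Psmc2 were called under the setting without cyclin D1 replicate 3, together with Psma4, Psma5 and Psmb7.

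The proteasome genes are mostly bright, and bright genes of all kinds had positive differences on these arrays. In the brightest decile 9 of 22 members were called higher, where 36% of the 1994 genes of that decile were, so this share is near the background. In the next decile 1 of 14 members was called, Psma5, where 13.4% of genes were. The median difference of the 22 brightest members was 2.10 against 1.59 over all genes of that decile as deposited, and 1.08 against 0.36 after renormalization. For the 14 members of the next decile it was 0.79 against 0.67 as deposited. Renormalized, it was 0.09 against 0.11, so these members did not exceed the genes of their decile there. Over all 50 members the median was 0.89 as deposited and 0.32 renormalized, against -0.05 and -0.02 over all genes.

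**Figure D1:**
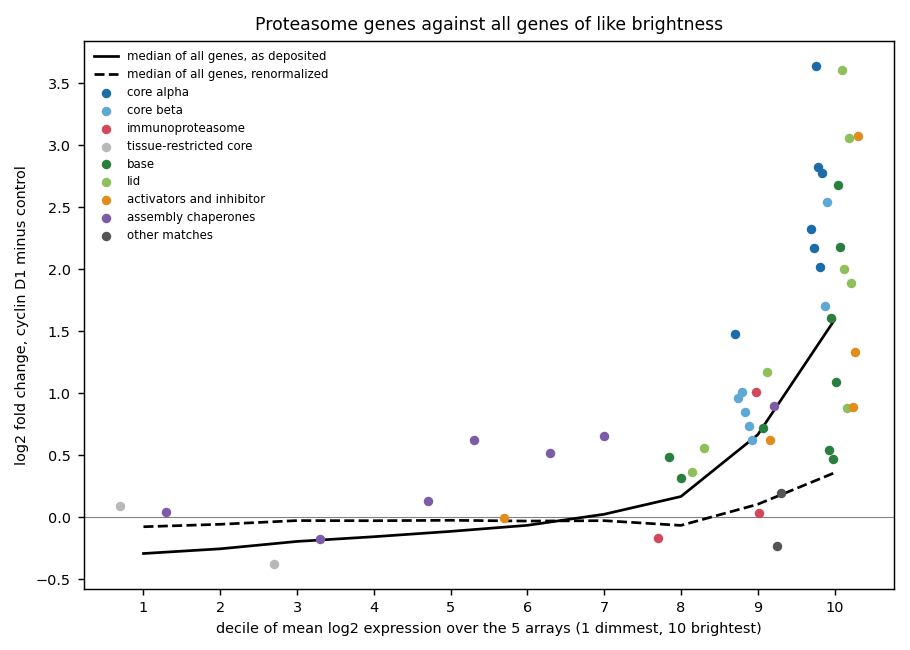
Log2 fold change (cyclin D1 minus control, vertical axis) of the 50 proteasome genes, as deposited, by decile of mean log2 expression (horizontal axis), with points spread sideways within a decile and coloured by subgroup. The lines join the median of all genes in each decile, solid as deposited and dashed after renormalization. As deposited, in the brightest decile the members have a median of 2.10 and all genes 1.59, and in the next decile 0.79 and 0.67.

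Position was also read directly from the arrays. In 37 of 50 members all 3 cyclin D1 values lay above both controls, which was so in 22.4% of all genes, and in 2 members (Psmb11 and Psmc3ip) all lay below both, as in 22.6% of all genes. The other 11 overlapped, among them Psmb4, Psmb9, Psmb10, Psmd2, Psmd8, Psme2 and Psmf1. A positive difference was found in 45 of 50 members, against 44.3% of all genes, and after renormalization in 36 of 50, against 47.8%. These shares of all genes cover every level of brightness, and shares among genes as bright as the members were not computed. The sign turned in 11 members on renormalization: Psmb9, Psmc1, Psmc3, Psmc5, Psmd2, Psmd11, Psme1, Psme2, Psme3 and Psme3ip1 became negative and Psmf1 positive.

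**Figure D2:**
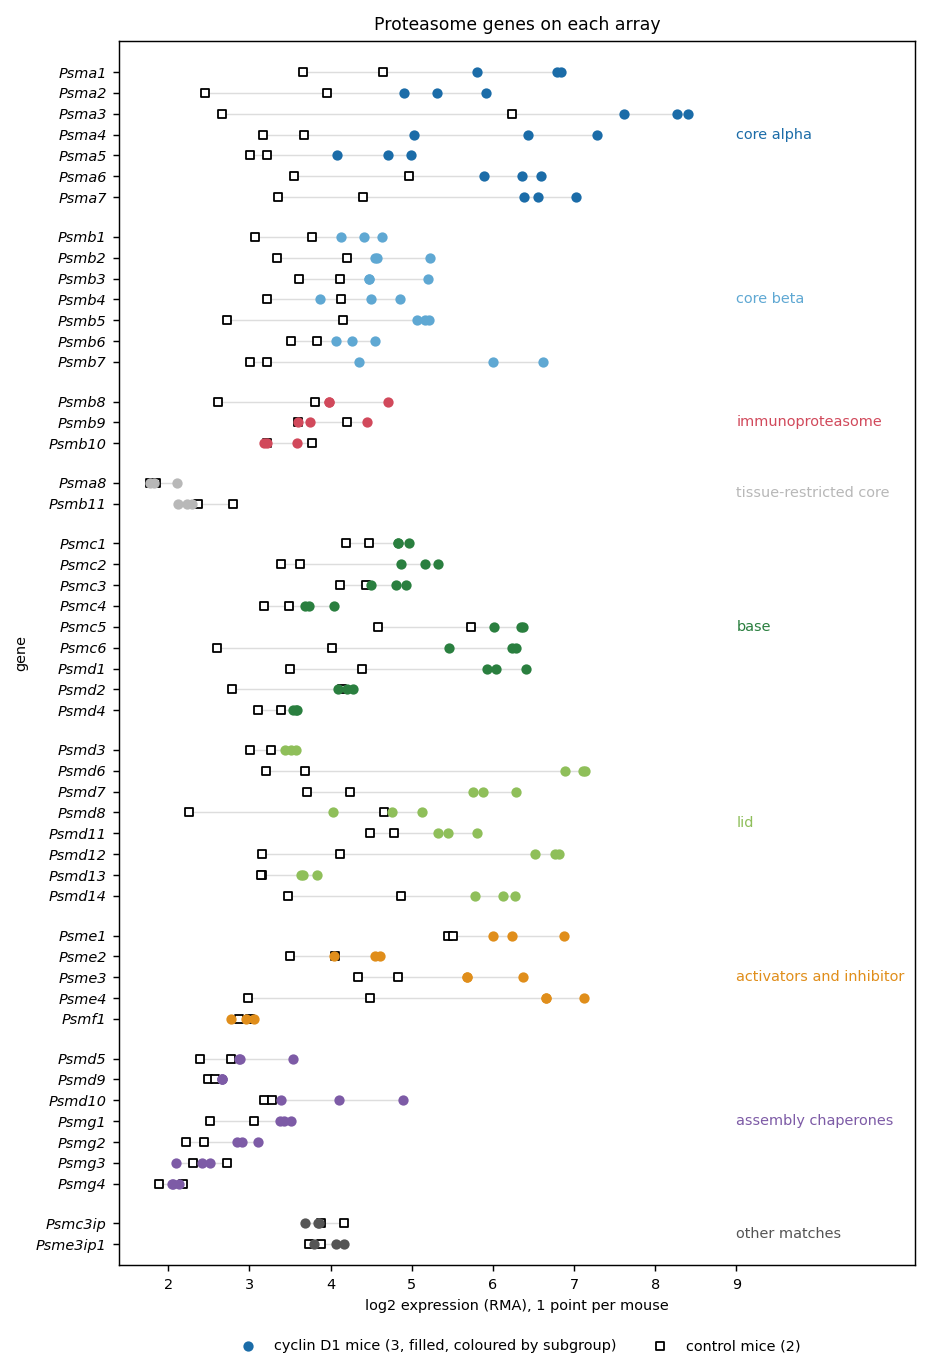
Log2 expression (horizontal axis) of each of the 50 genes (rows, grouped by subgroup) in every mouse, with filled coloured circles for the 3 cyclin D1 mice and open squares for the 2 control mice. In all 7 alpha genes the cyclin D1 circles lie to the right of both squares, as in 22.4% of all genes, while Psmb9 and Psmb10 overlap. On the renormalized scale 11 genes change sign.

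The alpha rings gave the most uniform picture. Psma1 to Psma7, which form the outer rings and the gate, all had positive differences, as deposited (1.48 to 3.64, median 2.32) and renormalized (0.55 to 2.67, median 1.56). In all 7 every cyclin D1 value lay above both controls, which was so in 22.4% of all genes. All but Psma5 lay in the brightest decile, and the share among genes as bright was not computed. Psma7 stood at 6.55, 7.03 and 6.38 in cyclin D1 glands, against 3.35 and 4.40 in controls. Its lowest cyclin D1 value was 1.98 above the higher control. It rose by 2.78 (SE 0.37, limma adjusted p = 0.0240), or by 1.70 renormalized without passing (adjusted p = 0.116).

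Psma1 stood at 6.84, 6.79 and 5.80 in cyclin D1 glands, against 3.66 and 4.64 in controls, and rose by 2.32 (SE 0.44, limma adjusted p = 0.0468). Psma5 had 4.71, 4.99 and 4.08 in cyclin D1 glands, against 3.01 and 3.22 in controls. It rose by 1.48 (SE 0.29) with an adjusted p of 0.0499 by limma, just inside the threshold, and its other probe set differed by 0.60 (adjusted p = 0.124). In both genes cyclin D1 replicate 3 was the lowest of the 3. Renormalized, Psma1 differed by 1.09 and Psma5 by 1.12, neither passing.

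Psma2, Psma3, Psma4 and Psma6 did not pass, with differences of 2.02 to 3.64 (limma adjusted p = 0.0669 to 0.101). Psma3 had 8.40, 8.27 and 7.62 in cyclin D1 glands, but 2.67 in control 1 and 6.24 in control 2. The controls lay nearly as far apart as the group means, which differed by 3.64 (SE 1.03). All 3 probe sets of Psma3 had this shape, with control 1 at 2.18 to 2.67 and control 2 at 5.80 to 6.24. Psma6 went the other way, with control 1 at 4.96 above control 2 at 3.55. Control 1 was therefore not the dimmer control for every alpha gene.

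None of the beta ring genes passed. Psmb1 to Psmb7 all had positive differences, from 0.62 to 2.54 with a median of 0.97, and 0 of 7 passed by limma (adjusted p = 0.0773 to 0.296), where 5.38% of all genes were called higher. Renormalized, all 7 stayed positive but 3, Psmb3, Psmb4 and Psmb6, were at 0.14 or below, and the median was 0.29. When control 1 was left out of the renormalized values the median turned to -0.06. Psmb1, a structural subunit, had 4.41, 4.63 and 4.12 in cyclin D1 glands, against 3.78 and 3.07 in controls, a difference of 0.97 (SE 0.27, adjusted p = 0.100, and 0.32 renormalized).

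Of the constitutive catalytic subunits, Psmb7, which carries the trypsin-like site, differed most. Its values were 6.0, 6.62 and 4.34 in cyclin D1 glands, against 3.01 and 3.22 in controls. The groups did not overlap, but cyclin D1 replicate 3 lay 1.13 above the controls and the other 2 replicates more than that. The difference was 2.54 (SE 0.67, limma adjusted p = 0.0889) and 2.0 renormalized (adjusted p = 0.112).

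Psmb5, with the chymotrypsin-like site that proteasome inhibitor drugs target, had 5.21, 5.16 and 5.06 in cyclin D1 glands, against 2.72 and 4.16 in controls. The cyclin D1 values lay close together and the controls far apart, and the difference was 1.71 (SE 0.42, limma adjusted p = 0.0773, and 1.08 renormalized). Psmb6, with the caspase-like site, had 4.07, 4.54 and 4.27 in cyclin D1 glands, against 3.51 and 3.83 in controls. It differed by 0.62 (SE 0.20, adjusted p = 0.131), and by 0.04 renormalized, which turned to -0.06 when control 1 was also left out.

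Each inducible counterpart of these 3 subunits had a smaller difference than the subunit it replaces. Psmb8, which replaces Psmb5, had 3.98, 4.71 and 3.98 in cyclin D1 glands, against 2.62 and 3.81 in controls. The lowest cyclin D1 value lay 0.17 above control 2, and the difference of 1.01 (SE 0.42) did not pass by limma (adjusted p = 0.208). It was 0.68 renormalized and -0.11 when control 1 was also left out.

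Psmb9, which replaces Psmb6, had 3.75, 4.45 and 3.60 in cyclin D1 glands, against 3.59 and 4.20 in controls. The groups overlapped throughout, with a difference of 0.04 (SE 0.33, limma adjusted p = 0.950) that became -0.64 renormalized. Psmb10, which replaces Psmb7, had 3.21, 3.18 and 3.58 in cyclin D1 glands, against 3.21 and 3.77 in controls, a difference of -0.17 (SE 0.23, adjusted p = 0.665, and -0.40 renormalized). It was 0.11 without control 2. The median of the 3 was 0.04, and it ranged from -0.26 to 0.34 when single arrays were left out.

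Each inducible gene can be set against its constitutive counterpart by the change between groups. The difference of Psmb8 was 0.70 below that of Psmb5 (a value of -0.70 in the direction inducible minus constitutive), that of Psmb9 lay at -0.58 relative to Psmb6, and that of Psmb10 at -2.71 relative to Psmb7. After renormalization these values were -0.40, -0.68 and -2.40. For Psmb10 relative to Psmb7 the cyclin D1 arrays gave -2.78, -3.44 and -0.76, against 0.21 and 0.56 in the controls, so the groups did not overlap, and for Psmb9 relative to Psmb6 they gave -0.31, -0.09 and -0.67 against 0.08 and 0.37. For Psmb8 relative to Psmb5 the cyclin D1 values of -1.23, -0.45 and -1.08 also lay below the control values of -0.10 and -0.35, by a small margin in replicate 2. No p is given for these pairs, which were chosen with earlier results known. Differences followed brightness on these arrays. Psmb5 and Psmb7 lay in a brighter decile than Psmb8 and Psmb10, while Psmb6 and Psmb9 shared one. How often other pairs of genes separate the groups in this way was not computed, so no result particular to these pairs is read.

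**Figure D3:**
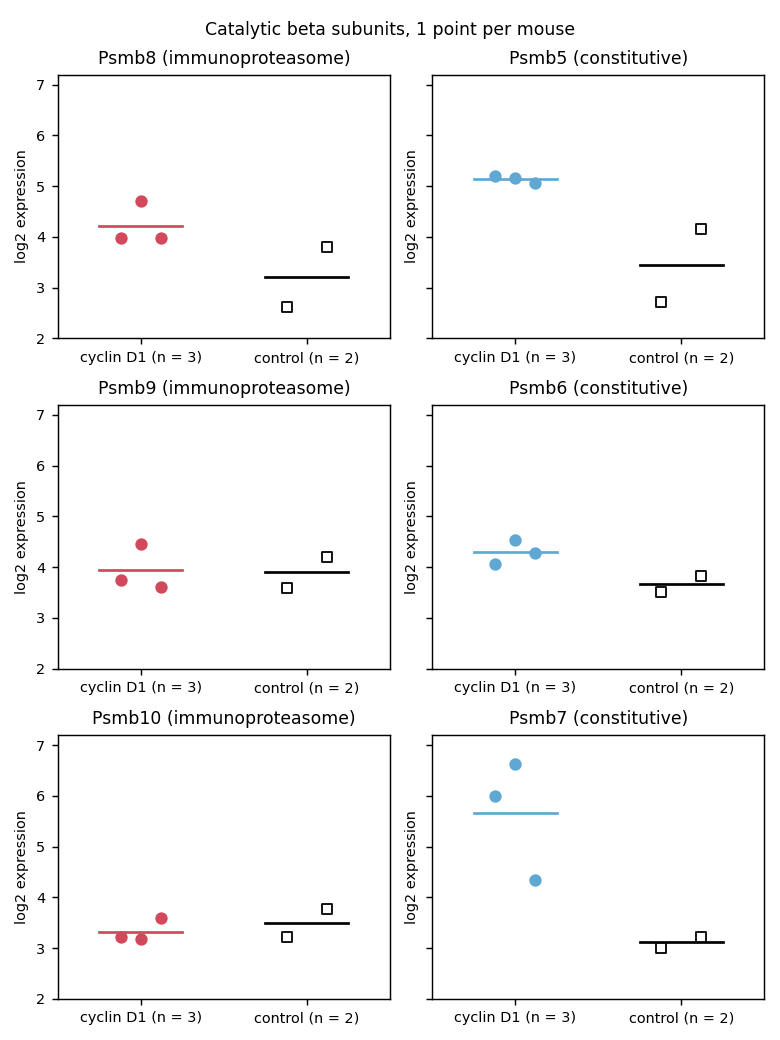
Log2 expression (vertical axis) of the inducible catalytic subunits (left column, red) and their constitutive counterparts (right column, blue) in each cyclin D1 mouse (filled circles) and control mouse (open squares), with horizontal lines at the group means. Psmb7 separates the groups (means 5.65 and 3.11), whereas Psmb9 (3.94 and 3.90) and Psmb10 (3.32 and 3.49) overlap; Psmb9 turns negative after renormalization, at -0.64.

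Both tissue-restricted core genes were dim. Psma8, the alpha subunit of male germ cells, had 1.82, 1.78 and 2.10 in cyclin D1 glands, against 1.85 and 1.77 in controls. These values were all below the mean of 1027 olfactory receptor genes on the same arrays, a rough floor of 1.97 to 2.24 on the cyclin D1 arrays and of 2.52 and 2.38 on the controls, so no difference is read from it. Psmb11, the beta subunit of the thymic cortex, had 2.29, 2.12 and 2.23 in cyclin D1 glands, against 2.80 and 2.37 in controls, a difference of -0.37 (SE 0.18, limma adjusted p = 0.252). It lay at or under the floor on 1 array of each group.

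The base was split. All 9 genes had positive differences (0.32 to 2.68, median 0.72), 3 passed, and 4 of the other 6 turned negative on renormalization. Over all genes 5.38% were called higher, but most of the 9 lay in the brightest decile, where 36% were. Psmc6, an ATPase of the ring, had 6.29, 6.23 and 5.47 in cyclin D1 glands, against 2.60 and 4.02 in controls. It rose by 2.68 (SE 0.48, limma adjusted p = 0.0417), and by 1.93 renormalized without passing.

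Psmc2, another ATPase of the ring, had 5.16, 5.33 and 4.87 in cyclin D1 glands, against 3.62 and 3.40 in controls. Replicates of both groups lay close together, and the rise was 1.61 (SE 0.19, limma adjusted p = 0.0198), or 0.86 renormalized without passing. Psmd1, the large scaffold that docks ubiquitin receptors, had 5.92, 6.40 and 6.03 in cyclin D1 glands, against 3.50 and 4.38 in controls. It rose by 2.18 (SE 0.31, adjusted p = 0.0271), and by 1.1 renormalized without passing.

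The other ATPases, Psmc1, Psmc3, Psmc4 and Psmc5, differed by 0.55, 0.47, 0.49 and 1.09 as deposited (limma adjusted p = 0.0968 to 0.206). After renormalization Psmc1, Psmc3 and Psmc5 were at -0.71, -0.72 and -0.50 and Psmc4 at 0.14. The 6 ATPases form a single ring, and their differences did not follow a common value on either scale. Psmd4, a ubiquitin receptor, differed by 0.32 (0.17 renormalized). Psmd2, the second large scaffold, had 4.20, 4.28 and 4.09 in cyclin D1 glands, against 4.14 and 2.79 in controls, a difference of 0.72 (SE 0.40) that was -0.03 renormalized.

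The choice of probe set was closest for Psmd2. Its 2 probe sets had mean levels of 3.9012 and 3.9006, so the kept one was just inside the rule. The one left out had 4.39, 4.45 and 3.96 in cyclin D1 glands, against 3.17 and 3.52 in controls, with no overlap and a difference of 0.92 (SE 0.22, limma adjusted p = 0.0703 over all probe sets). In 4 other members with several probe sets, Psma3, Psma5, Psmb3 and Psmc1, all of their probe sets had positive differences. The second probe set of Psmc1 differed by 1.15 (adjusted p = 0.0529), against 0.55 for the one kept. With probe sets averaged per gene, Psma5 no longer passed and Psmc1 did.

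The lid held 2 of the 3 largest changes among the 10 genes that passed. All 8 genes had positive differences (0.37 to 3.60, median 1.53) and 3 passed. Over all genes 5.38% were called higher, but most of the 8 lay in the brightest decile, where 36% were. The count for the lid is therefore not read as a result about the lid. Psmd6, a scaffold subunit of the lid, had 7.13, 7.12 and 6.89 in cyclin D1 glands, against 3.20 and 3.68 in controls. The lowest cyclin D1 value was 3.21 above the higher control, the widest gap of the 10 genes that passed. It rose by 3.60 (SE 0.20, limma adjusted p = 0.0102), or 12.2-fold, and by 2.74 renormalized (adjusted p = 0.0434), and it passed under 13 of the 16 alternative settings, with adjusted p of 0.00895 to 0.103 and differences of 2.74 to 3.84.

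Psmd12, which helps to hold the lid together, had 6.76, 6.81 and 6.52 in cyclin D1 glands, against 3.16 and 4.12 in controls. It rose by 3.06 (SE 0.31, limma adjusted p = 0.0168), or 8.34-fold, and by 2.11 renormalized (adjusted p = 0.0739). It passed under 11 of the 16 alternatives (adjusted p of 0.0128 to 0.103). Psmd7, the partner of the deubiquitinase subunit, had 6.29, 5.75 and 5.88 in cyclin D1 glands, against 3.71 and 4.24 in controls, and rose by 2.0 (SE 0.25, adjusted p = 0.0214), or by 0.84 renormalized without passing.

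Psmd14, the deubiquitinase itself, did not pass. It had 6.28, 6.12 and 5.78 in cyclin D1 glands, against 3.48 and 4.87 in controls, a difference of 1.89 (SE 0.43, limma adjusted p = 0.0678, and 0.77 renormalized). The groups did not overlap, and control 1 was the lower control. The structural subunits Psmd3, Psmd8, Psmd11 and Psmd13 differed by 0.37, 1.17, 0.88 and 0.56, and renormalized by 0.26, 0.60, -0.59 and 0.38. Psmd8 overlapped, with 2.26 in control 1 and 4.66 in control 2, and without control 1 its difference was -0.03.

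Among the activators, which open the gate of the core without ubiquitin, Psme4 stood apart from the PA28 genes. Psme4, which encodes PA200, had 6.65, 7.12 and 6.65 in cyclin D1 glands, against 2.98 and 4.48 in controls. It rose by 3.08 (SE 0.46, limma adjusted p = 0.0303), or 8.44-fold, and by 2.11 renormalized without passing (adjusted p = 0.154). Psme3, the nuclear PA28 subunit, had 5.69, 6.38 and 5.69 in cyclin D1 glands, against 4.34 and 4.83 in controls, a difference of 1.33 (SE 0.29, adjusted p = 0.0600) that was -0.18 renormalized.

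Psme1 and Psme2, the interferon-inducible PA28 subunits, differed by 0.89 and 0.62 (limma adjusted p = 0.124 and 0.210) and by -0.85 and -0.24 renormalized. Psme1 had 6.01, 6.88 and 6.23 in cyclin D1 glands, against 5.45 and 5.50 in controls, and the groups did not overlap. A further probe set that reads Psme2 together with its copy Psme2b was left out by the rule, since it names more than 1 gene, and the signal of Psme2 itself is uncertain for the same reason. Psmf1, an inhibitor of the core, had 2.96, 3.06 and 2.78 in cyclin D1 glands, against 3.00 and 2.88 in controls, a difference of -0.01 (SE 0.15, adjusted p = 0.979). It was the flattest member on both scales, at 0.002 renormalized.

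The assembly chaperones did not pass, 0 of 7 by limma (2 of them at an unadjusted p under 0.05, a level reached by 26.3% of all genes). Psmg1 and Psmg2, which pair to build the alpha ring, had no overlap between groups. Psmg2 had 2.91, 3.11 and 2.85 in cyclin D1 glands, against 2.22 and 2.44 in controls, a difference of 0.63 (SE 0.16, adjusted p = 0.0779, and 0.75 renormalized). Psmg1 had 3.43, 3.52 and 3.37 in cyclin D1 glands, against 2.51 and 3.05 in controls, a difference of 0.66 (SE 0.20, adjusted p = 0.114, and 0.65 renormalized).

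Renormalization did not shrink these differences by more than a rounding step, and both genes lay at or under the floor in control 1. Psmd5, Psmd9 and Psmd10, chaperones of the base, differed by 0.52, 0.13 and 0.90, and renormalized by 0.55, 0.26 and 0.56. Psmd10, also known as gankyrin, had 4.11, 4.90 and 3.40 in cyclin D1 glands, against 3.19 and 3.28 in controls (SE 0.44, limma adjusted p = 0.258). Psmg3, a further alpha ring chaperone, had 2.09, 2.42 and 2.51 in cyclin D1 glands, against 2.30 and 2.73 in controls, a difference of -0.18 that became 0.10 when each array was scaled to the same median and SD. Psmg4, its partner, lay at or under the floor in both controls and on 1 cyclin D1 array.

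The interaction partners matched by name were flat as deposited. Psmc3ip, a meiotic recombination factor, had 3.69, 3.84 and 3.85 in cyclin D1 glands, against 4.17 and 3.89 in controls, a difference of -0.23 (SE 0.15, limma adjusted p = 0.378) and -1.1 renormalized. Psme3ip1, which binds PA28 gamma, had 3.80, 4.07 and 4.17 in cyclin D1 glands, against 3.74 and 3.88 in controls, a difference of 0.20 (SE 0.16, adjusted p = 0.469) that was -0.47 renormalized. Neither passed the test on either scale.

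**Figure D4:**
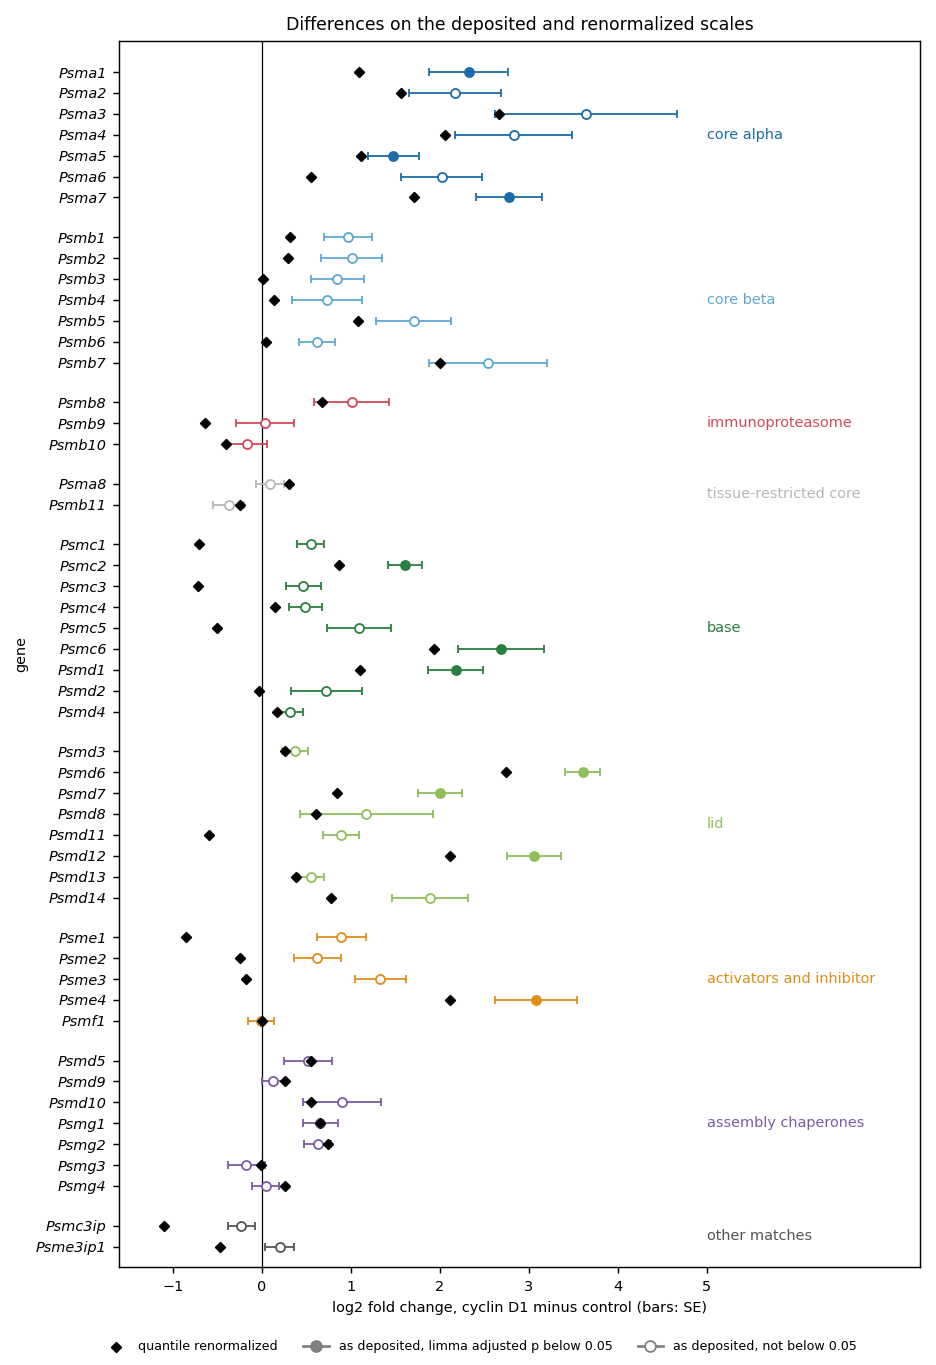
Log2 fold change (cyclin D1 minus control, horizontal axis) of each gene (rows, grouped by subgroup) as deposited, with the SE as bars and filled circles where the limma adjusted p is below 0.05, and after renormalization (black diamonds). Psmd6 stands at 3.60 and 2.74 and Psmd12 at 3.06 and 2.11, while Psme1, Psmc1, Psmc3, Psmc5 and Psmd11 pass from positive to negative.

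Promoter windows were read to show the sequence in front of the genes the results turn on. RefSeq windows of 300 bases (build GRCm38.p6, 250 before and 50 after the start) were found for 42 of the 50 members, in 46 windows. The motif TGACNNNGC, a core shared by the antioxidant response elements that NRF1 and NRF2 bind, was in windows of 6 members (Psmb5, Psmb6, Psmc6, Psmd9, Psmd12 and Psme4), or 14.3%, against 12.4% of all 32851 windows. Of the 9 genes that passed and had a window, 3 held it. The core of interferon response elements, read as GAAA, any 2 bases and GAAA, was in windows of 5 members (Psmb3, Psmd4, Psmd9, Psme1 and Psmg4), or 11.9%, against 3.44% of all windows, and in none of Psmb8, Psmb9 and Psmb10. The box CCAAT was in windows of 16 members, or 38.1%, against 37.4%. The shares are per gene for the members, where a match in any window of the gene counts, and per window for the background, so they are not strictly alike. Both strands were searched, and a match or its lack describes only these letters in this window.

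Shown are the 3 genes with the largest rises among the 10 that passed (Psmd6, Psmd12 and Psme4), a constitutive catalytic subunit (Psmb5) and an inducible one (Psmb9), 5′ to 3′ on the gene's strand, with matches to TGACNNNGC in capitals on either strand. The windows are chr14:14120896-14121195 on the minus strand for Psmd6, chr11:107479278-107479577 on the plus strand for Psmd12, chr11:30771525-30771824 on the plus strand for Psme4, chr14:54617946-54618245 on the minus strand for Psmb5 and chr17:34187281-34187580 on the minus strand for Psmb9.
Psmd6: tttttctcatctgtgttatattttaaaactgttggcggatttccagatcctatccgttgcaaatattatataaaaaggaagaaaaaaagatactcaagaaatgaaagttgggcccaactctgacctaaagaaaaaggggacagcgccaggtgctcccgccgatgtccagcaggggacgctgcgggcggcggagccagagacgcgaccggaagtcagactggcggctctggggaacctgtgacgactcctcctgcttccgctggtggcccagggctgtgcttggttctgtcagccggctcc
Psmd12: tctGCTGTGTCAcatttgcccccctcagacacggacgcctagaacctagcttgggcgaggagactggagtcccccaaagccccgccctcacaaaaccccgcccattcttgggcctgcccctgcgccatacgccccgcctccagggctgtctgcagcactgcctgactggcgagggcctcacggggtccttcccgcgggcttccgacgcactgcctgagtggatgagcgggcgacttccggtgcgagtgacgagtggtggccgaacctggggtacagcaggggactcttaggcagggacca
Psme4: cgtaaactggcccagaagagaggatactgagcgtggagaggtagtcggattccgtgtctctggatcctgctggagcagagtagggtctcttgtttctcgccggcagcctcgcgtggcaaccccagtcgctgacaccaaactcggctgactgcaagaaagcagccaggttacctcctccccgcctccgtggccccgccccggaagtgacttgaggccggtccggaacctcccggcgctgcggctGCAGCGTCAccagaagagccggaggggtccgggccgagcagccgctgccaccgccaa
Psmb5: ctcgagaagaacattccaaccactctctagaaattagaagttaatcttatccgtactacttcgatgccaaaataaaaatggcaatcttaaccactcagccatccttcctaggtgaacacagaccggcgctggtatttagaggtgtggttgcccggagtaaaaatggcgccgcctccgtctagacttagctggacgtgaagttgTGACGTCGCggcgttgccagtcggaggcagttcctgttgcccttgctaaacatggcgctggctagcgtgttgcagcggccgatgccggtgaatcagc
Psmb9: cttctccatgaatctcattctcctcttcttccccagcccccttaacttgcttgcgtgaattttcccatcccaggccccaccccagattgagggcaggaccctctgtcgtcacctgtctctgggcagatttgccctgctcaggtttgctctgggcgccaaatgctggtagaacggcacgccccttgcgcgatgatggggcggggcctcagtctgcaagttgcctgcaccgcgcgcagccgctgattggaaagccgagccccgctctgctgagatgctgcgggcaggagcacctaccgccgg
The capitals begin 247 bases before the start in Psmd12 and 7 bases before it in Psme4, both as the reverse complement, and 47 bases before it in Psmb5 on the gene's own strand. Psmd6, with the widest gap between groups of the 10 genes that passed, and Psmb9, with overlapping groups, held neither TGACNNNGC nor the interferon response core.

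Partners of the proteasome were read from a list of 17 names, of which 12 were measured, and 7 were higher by limma. Over all genes 5.38% were called higher, but most of the 12 lay in the brightest decile, where 36% of genes were. Uchl5, a deubiquitinase of the regulatory particle, had 6.42, 7.12 and 7.06 in cyclin D1 glands, against 4.26 and 4.51 in controls, and rose by 2.48 (adjusted p = 0.0168). Txnl1, a thioredoxin bound to the regulatory particle, rose by 2.44, Sem1, the smallest lid subunit, by 1.87, Usp14, a deubiquitinase that docks on the base, by 1.86, Ecpas, an adaptor of the proteasome, by 1.66, the ubiquitin ligase gene Ube3c by 1.60 and the shuttle factor gene Rad23b by 0.92. Renormalized, none of the 12 passed (limma, 3736 genes at an unadjusted p under 0.05 over all genes) and their differences were 0.92 for Uchl5, 1.79 for Txnl1, 1.52 for Sem1, 0.92 for Usp14, 0.24 for Ecpas, 1.47 for Ube3c and -0.64 for Rad23b. Pomp, the maturation chaperone of the core, differed by 1.52 (adjusted p = 0.193, and -0.06 renormalized), and Vcp, the segregase that feeds the proteasome, by 1.90 (adjusted p = 0.0773, and 0.81 renormalized).

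Of the transcription factor route that raises proteasome genes when proteasome activity falls, 3 of 4 names were measured and 0 passed by limma. Nfe2l1, which encodes NRF1, had 4.57, 4.49 and 3.84 in cyclin D1 glands, against 3.02 and 3.60 in controls, a difference of 0.99 (adjusted p = 0.117, and 0.61 renormalized). Nfe2l2, which encodes NRF2, differed by 2.32 (adjusted p = 0.0669, and 1.07 renormalized). Of 6 names for ubiquitin and its activating enzymes only Uba6 had a probe set of its own, at a difference of 1.57 (adjusted p = 0.0708, and 0.51 renormalized).

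In the list of class I antigen processing and interferon genes, 12 of 14 names were measured. By limma 1 of the 12 was higher, where 5.38% of all genes were. This was Pdia3, a disulfide isomerase that also serves general folding, which rose by 1.56 (limma adjusted p = 0.0226), with 0.06 renormalized. Tap1 and Tap2, peptide transporter genes that neighbour Psmb9 and Psmb8, differed by -0.03 and -0.17 (adjusted p = 0.922 and 0.731), and renormalized by 0.00 and -0.30. Over the 12 genes the median was 0.97 as deposited and 0.03 renormalized, with 8 and 7 positive. The chaperone genes Canx and Calr differed by 2.47 and 1.89, B2m, the light chain of class I, by 1.05, the peptide-trimming Erap1 by 0.89 and Ifit3 by 1.29, none of them passing, and renormalized by 0.78, 0.65, -0.21, 0.22 and 1.26. Ifit1, an interferon-induced gene, had 3.30, 6.03 and 3.28 in cyclin D1 glands, against 2.99 and 2.92 in controls. Cyclin D1 replicate 2 was thus the high array for Ifit1, and it was also the highest for Psmb8 (4.71), Psmb9 (4.45) and the leukocyte marker Ptprc (7.38), but the lowest for Psmb10 (3.18). Replicate 2 had the highest mean over all 50 members as well, 4.93 against 4.71 and 4.49 in cyclin D1 replicates 1 and 3 and 3.32 and 3.76 in controls. Its rank for Psmb8 and Psmb9 was therefore not particular to them. Ptprc had 6.10 and 4.68 in the other cyclin D1 glands, against 3.96 and 6.22 in controls. The part of leukocytes or interferon in these values was not tested.

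**Figure D5:**
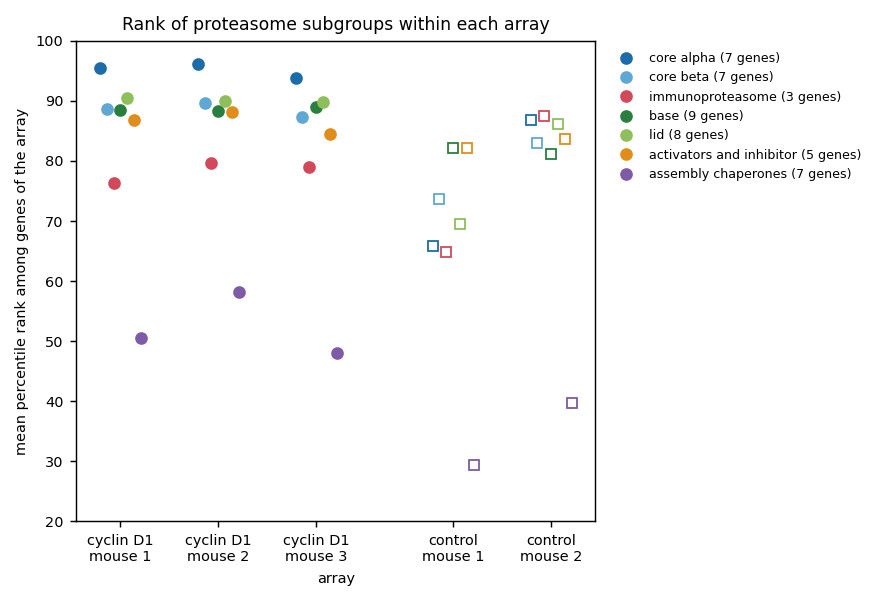
Mean percentile rank among the genes of the same array (vertical axis) of the genes of 7 proteasome subgroups on each array (horizontal axis), with filled circles for cyclin D1 mice and open squares for control mice, shifted sideways by subgroup. The alpha genes rank at 93.8 to 96.1 on the cyclin D1 arrays and at 65.9 and 86.7 on the controls, while the inducible subunits rank at 76.3 to 79.7 and at 64.9 and 87.4, so that control 2 lies above all 3 cyclin D1 arrays.

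The rank of a gene within its own array does not depend on the array's range. By mean rank the alpha genes stood at percentiles 95.5, 96.1 and 93.8 on the cyclin D1 arrays, against 65.9 and 86.7 on the controls. The lid stood at 90.4, 89.9 and 89.8 against 69.5 and 86.1, and the base at 88.4, 88.3 and 89.0 against 82.1 and 81.2. The inducible subunits stood at 76.3, 79.7 and 78.9 against 64.9 and 87.4, with the cyclin D1 arrays between the controls. In the alpha genes, the beta genes and the lid, control 1 ranked furthest from the cyclin D1 arrays.

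Markers of the gland's cell types were read beside these results. Of 8 measured markers of luminal and alveolar epithelium, 3 were higher by limma, Epcam by 2.49, Cdh1 by 1.37 and the alveolar factor gene Elf5 by 3.43 (adjusted p = 0.0184, 0.0228 and 0.0192). Over all genes 5.38% were called higher, and 36% in the brightest decile, where most of the 8 lay. None of the 3 passed renormalized (1.54, 0.88 and 2.58, adjusted p = 0.0630, 0.0801 and 0.0630). The summed linear signal of the 8 was 4184 to 6366 in cyclin D1 glands, against 1499 and 2656 in controls, and the milk protein genes Csn2 and Wap, which did not pass, made up 93.4% to 93.9% of it in cyclin D1 glands and 94.3% and 96.7% in controls. Without them the sum was 259 to 390 in cyclin D1 glands, against 85.0 and 87.3 in controls. Of 5 myoepithelial markers 1 was higher, the smooth muscle actin gene Acta2, by 2.48 (adjusted p = 0.0349), with 0.92 renormalized (adjusted p = 0.177), while Krt14 and Oxtr differed by -0.10 and -0.29. Their summed signal was 142 to 289 in cyclin D1 glands, against 52.5 and 81.9 in controls, and without Acta2 and Myh11 it was 25.8 to 26.7 against 23.9 and 25.8. Of 6 adipocyte markers 0 passed, with a summed signal of 411 to 1694 against 722 and 934.

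Other cell types showed 0 calls by limma: 5 T cell markers summed to 31.9 to 61.3 against 40.0 and 44.0, 3 B cell markers to 14.7 to 33.1 against 19.9 and 25.8, 4 macrophage markers to 32.9 to 83.4 against 30.3 and 31.5, and 4 markers of antigen-presenting cells to 46.0 to 100.8 against 49.2 and 70.7. Those of 4 fibroblast, 3 endothelial and 3 skeletal muscle markers were 284 to 510 against 103 and 336, 32.6 to 47.9 against 26.4 and 33.0, and 20.1 to 21.2 against 23.7 and 25.3. Without Cd68 the macrophage sum overlapped between groups, at 16.9 to 25.2 in cyclin D1 glands against 21.6 and 18.4 in controls. The myoepithelial sum without Acta2 and Myh11 also overlapped. The full luminal, myoepithelial and macrophage sums were higher on every cyclin D1 array than on both controls, as were the proteasome genes that rose. So was the summed signal of all 19938 genes, at 349495 to 413229 in cyclin D1 glands against 198198 and 244371 in controls. These cell type sums are thus not set apart from the wider range of the cyclin D1 arrays. The part of these cell types in the rises of the proteasome genes was not tested.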

How the data were processed

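Per the submitters' processing notes, the deposited log2 expression values per probe set were made by the authors with Affymetrix Expression Console 1.1 and RMA, which corrects background, quantile-normalizes probes and summarises them. The settings and the set of arrays normalized together are not given in the sources used here, and the log base was inferred from the range of 0.830 to 12.9. No detection calls or raw signals were used, and 5 arrays limit the precision.

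Samples were grouped by their titles, 1 mouse each per the design text. Of 35556 probe sets, 21789 carried 1 gene symbol in the platform annotation, 1621 several and 12146 none. Entrez identifiers matched the RefSeq table for 21698, and 0 symbols differed. The probe set with the highest mean was kept per symbol, giving 19938 genes. limma 3.58.1 in R 4.3.3 (lmFit, eBayes, 3 residual and 2.39 prior degrees of freedom) compared the groups two-sided, with Benjamini-Hochberg adjustment over all genes and a threshold of 0.05. The fit was tested on simulated data. No filter was applied. Values on every array are given for the catalytic subunits, the 3 genes of smallest p per subgroup and genes with a negative difference, and others were chosen after their values were seen. The members and lists were chosen with earlier results of these data known, so list medians are descriptions.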

Additional observations from a re-analysis of the deposited data

How the results depend on the processing

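With 2 controls and 3 cyclin D1 mice, and a narrower range on the controls, the counts depend on scaling and on single arrays. Quantile renormalization gave 51 genes higher and 21 lower (1072 and 137 as deposited), 1 member higher (10 as deposited), a median of 0.32 over all members (0.89), and medians of 1.56 for the alpha genes (2.32), 0.29 for the beta genes (0.97), -0.40 for the inducible subunits (0.04), 0.14 for the base (0.72) and 0.69 for the lid (1.53). It reversed 11 members: Psmb9 (-0.64), Psme1 (-0.85), Psme3 (-0.18), Psme3ip1 (-0.47), Psmf1 (0.00245), Psmc1 (-0.71), Psmc3 (-0.72), Psmc5 (-0.50), Psmd2 (-0.03), Psmd11 (-0.59) and Psme2 (-0.24). Reversals under the settings that follow, other than leaving out 1 array as deposited, are given for the 28 members described in full. Scaling each array to the same median and SD gave 201 and 35 genes, 2 members, and medians of 0.515 over all members, 0.50 for the beta genes, -0.37 for the inducible subunits, 0.19 for the base and 1.00 for the lid, and reversed Psmb9 (-0.42), Psme1 (-0.51), Psme3ip1 (-0.25) and Psmg3 (0.10). The cause was not tested. Median centring reversed Psmf1 (0.0626). The intensity trend gave 622 higher genes, the filter on dim genes 56 lower genes, and testing every probe set a base median of 0.92. Array weights gave 263 and 4 genes and 4 members, and reversed Psmf1 (0.0141).

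With single arrays left out, the higher genes ranged from 0 to 1365, the lower ones from 0 to 1063 and the members called from 0 to 13, where fewer arrays leave fewer degrees of freedom; with 1 control left, its spread is assumed to be that of the other group. The 0 higher genes stand beside limma counts at an unadjusted p under 0.05 of 4973 without control 1, and of 3568 and 3491 when cyclin D1 replicate 1 or 2 was left out. Medians ranged from 0.68 to 0.99 over all members, 1.86 to 2.93 for the alpha genes, 0.60 to 1.19 for the beta genes, -0.26 to 0.34 for the inducible subunits, 0.63 to 0.78 for the base and 0.96 to 2.32 for the lid. The sign of 7 members turned when single arrays were left out: Psmd8 ranged from -0.03 (without control 1) to 2.37, Psmg4 from -0.11 (without control 1) to 0.19, Psmb9 ranged from -0.265 (without control 1) to 0.342, Psmb10 from -0.449 to 0.110 (without control 2), Psmg3 from -0.388 to 0.0368 (without control 2), Psma8 from -0.0108 (without cyclin D1 replicate 3) to 0.153, and Psmf1 from -0.0730 to 0.0698 (without cyclin D1 replicate 3). Without cyclin D1 replicate 2 the inducible median was -0.0957 and Psmb9 was at -0.219.

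Renormalized and without control 1, 555 genes were higher and 894 lower and 8 members were higher. The medians were 0.25 over all members, 1.13 for the alpha genes, -0.0554 for the beta genes, -0.82 for the inducible subunits, 0.54 for the base and 0.31 for the lid, and Psmb6 (-0.0554), Psmb8 (-0.11), Psmb9 (-1.05), Psme1 (-0.42), Psme3 (-0.12), Psme3ip1 (-0.41) and Psmf1 (0.105) were reversed. Chosen after seeing the data, renormalization with another array left out called 0 members without each cyclin D1 replicate in turn (12 to 17 at an unadjusted p under 0.05 in limma) and 20 without control 2.

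The labels share replicate numbers between groups but name no litter or batch, and the deviations of same-numbered arrays correlated at -0.03 and 0.13 across genes, so the numbers were not taken as pairs. With the replicate number as a block, 1137 genes were higher and 10 lower, 15 members were higher (among them Psmb7, adjusted p = 0.0270, and Psme3, adjusted p = 0.0403, by limma), and the medians were 0.99 over all members and 0.20 for the inducible subunits, with Psma8 (-0.0108) and Psmf1 (0.0698) reversed.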
